A study of Mus musculus with 6 samples.

Results

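The genes described are 40 genes of the G2 and M phases of the cell cycle, among them cyclins, mitotic kinases, spindle checkpoint and kinetochore genes, spindle motors and cytokinesis factors. A probe was taken for a member when the array files name it for a listed gene, with older synonyms counted. All 40 genes were found, on 71 of the 41174 non-control probes and among 28032 genes. Their levels were read in epithelial cells of the thymus, the stroma in which T cells develop, sorted by an EGFP reporter of Meis1, a homeodomain transcription factor.

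All cells came from C57BL/6 mice aged 4 weeks that carried the BAC transgene Tg(Meis1-EGFP)FO156Gsat/Mmcd, and all lacked CD45 and displayed EpCAM. Cells of low forward scatter were taken into the Meis1-high gate where EGFP was bright and into the Meis1-negative gate where it was absent. Cells of high forward scatter, that is larger ones, made up the Meis1-low gate, and their EGFP was intermediate. Each gate was sampled on 2 one-colour arrays, each from a pool of 6 mice, with 10 ng of RNA amplified for labelling. The sort recorded reporter fluorescence and not Meis1 protein. Because the Meis1-high and Meis1-low gates differ in cell size as well as in EGFP, the effects of size and of reporter cannot be told apart between them.

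Cells that enter mitosis build up cyclin B with Cdk1, condense their chromosomes, attach them to the spindle through kinetochores, and separate them once the spindle checkpoint releases the anaphase-promoting complex. Transcripts of this machinery are low in resting cells and accumulate late in the cycle, so their sum in a tissue sample is widely read as a measure of proliferation. In the thymus, the precursors of Aire-expressing medullary epithelial cells are known to divide often, and epithelial division as a whole slows with age. In bulk RNA, fewer dividing cells and less RNA per cell cannot be told apart.

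The promoters of such genes are known to share 2 short elements. The cell cycle genes homology region (CHR) is bound by the MuvB core of the DREAM complex in resting cells and by MuvB with B-Myb or FoxM1 in G2, and the CCAAT box is bound by NF-Y. Promoter sequence from RefSeq (GRCm38.p6), from 250 bases before to 50 bases after each annotated start, was at hand for 33 of the 40 genes in 36 windows. CHR letters were counted as TTTGAA or TTCGAA and CCAAT letters as CCAAT, each on both strands, so that TTCAAA and ATTGG count as well, and a CHR match and an ATTGG can share a base. CHR letters were present in 28 of the 36 windows (77.8%), against 19.2% of all 32851 promoter windows of the same length and 17.6% of the 34 windows of DNA replication genes. From 60 bases before to 40 after the start the shares were 69.4% of the mitosis windows and 5.7% of all windows. CCAAT letters stood in 77.8% of the mitosis windows and 37.4% of all windows, at least 2 copies in 52.8% and 11.7%. CHR letters together with at least 2 CCAAT copies were found in 47.2% of the mitosis windows, in 2.31% of all windows and in 8.82% of the DNA replication windows. These matches are a description of letters and were not tested against binding.

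On its brightest probe, Bub3 was the tested gene that differed least between Meis1-high and either other gate. In the 7 stretches that follow, CHR and CCAAT letters are in capitals, on whichever strand they lie. These stretches are the 100 bases before an annotated start of Bub3 and of 6 members with differing roles, all described with their levels. They are shown 5′ to 3′ on the strand of the gene, from GRCm38.p6, at chr7:135716380-135716479 (minus strand) for Mki67, chr11:99024190-99024289 (minus) for Top2a, chr10:69352913-69353012 (minus) for Cdk1, chr4:118437344-118437443 (minus) for Cdc20, chr2:164769829-164769928 (plus) for Ube2c, chr19:37376282-37376381 (plus) for Kif11 and chr7:131560270-131560369 (plus) for Bub3.
Mki67: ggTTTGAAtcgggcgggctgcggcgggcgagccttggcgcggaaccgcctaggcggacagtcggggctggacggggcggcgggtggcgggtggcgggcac
Top2a: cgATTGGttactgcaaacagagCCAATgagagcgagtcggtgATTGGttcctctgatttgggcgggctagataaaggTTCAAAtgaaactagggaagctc
Cdk1: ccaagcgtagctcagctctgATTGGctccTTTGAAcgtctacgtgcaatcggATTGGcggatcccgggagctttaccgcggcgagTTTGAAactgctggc
Cdc20: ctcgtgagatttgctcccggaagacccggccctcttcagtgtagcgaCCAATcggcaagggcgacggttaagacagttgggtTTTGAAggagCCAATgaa
Ube2c: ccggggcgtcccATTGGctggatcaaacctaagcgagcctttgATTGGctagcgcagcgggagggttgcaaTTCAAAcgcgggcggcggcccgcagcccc
Kif11: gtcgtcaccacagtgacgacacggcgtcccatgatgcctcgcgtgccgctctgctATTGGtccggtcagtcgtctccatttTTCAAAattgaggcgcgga
Bub3: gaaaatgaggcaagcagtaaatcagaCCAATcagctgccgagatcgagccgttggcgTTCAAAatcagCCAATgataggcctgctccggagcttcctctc
In Top2a, Cdc20, Ube2c and Kif11 a CHR match begins between -29 and -18, counted in bases from the start, downstream of at least 1 CCAAT copy. Bub3 has the same letters, with the CHR match at -43. Counted from its other annotated start, that match lies at -167. The 8 genes whose windows held no CHR letters were Birc5, Ccnb1, Cenpe, Cks2, Mad2l1, Nuf2, Nusap1 and Pttg1.

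**Figure D1:**
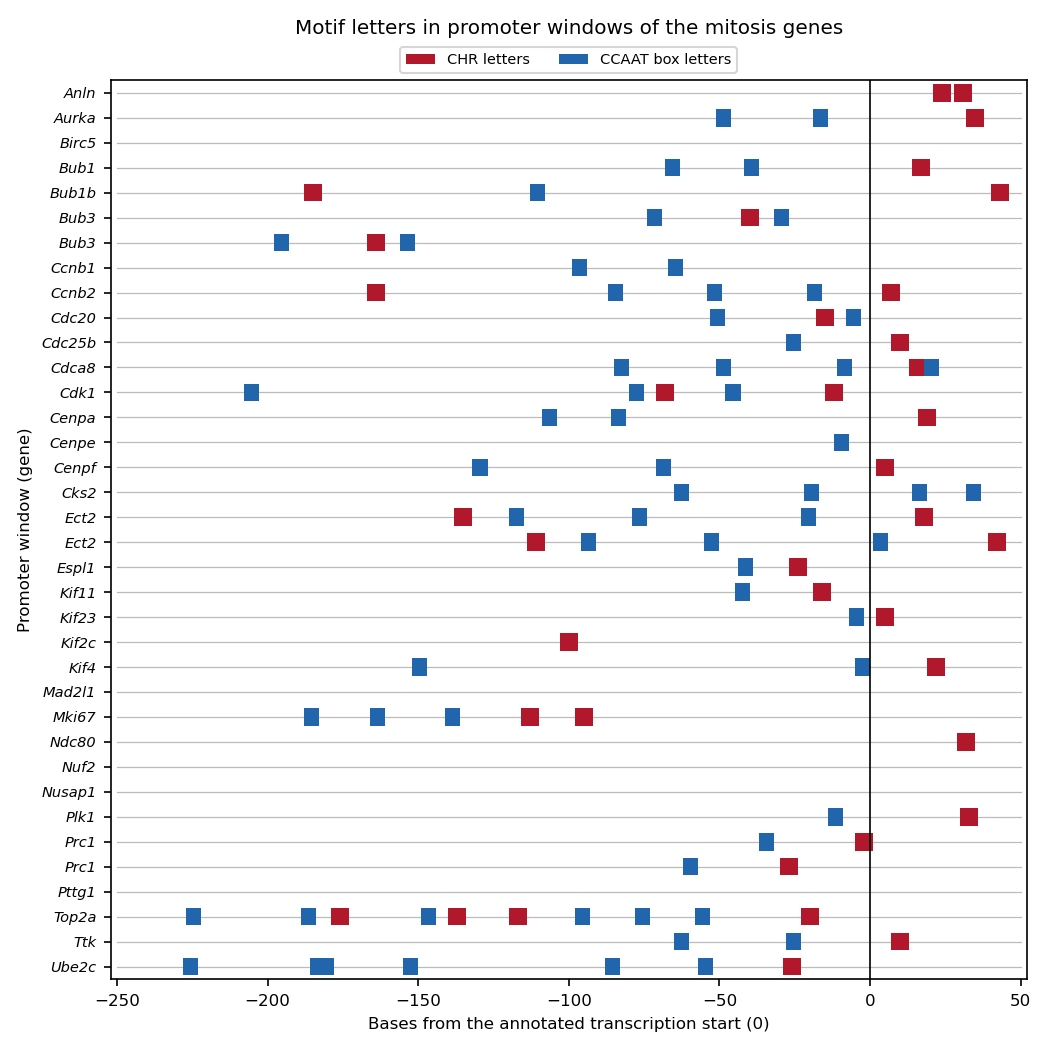
CHR letters (red) and CCAAT letters (blue) along the 36 promoter windows of 33 mitosis genes, with distance from the annotated start on the horizontal axis in bases. In 25 of the 36 windows a CHR match lies from 60 bases before to 40 bases after the start.

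Levels are log2 signals minus the array's own 75th percentile, so 0 is the 75th percentile of the array and a difference of 1 is a doubling. The 75th percentile of the signal itself ranged from 70.1 to 158.3, and between 53.1% and 69.6% of the spots of an array were well above background. The replicate 1 arrays were scanned together on slide 1 and the replicate 2 arrays on slide 2. Of the 40 genes, 38 were tested: Kif2c was well above background on the replicate 2 arrays only, and Espl1 on no array. For Aurkb, Kif11, Tpx2 and Anln 1 Meis1-high array fell short of that mark, so they entered the test through the other gates. Meis1 itself was at 0.30 and 0.17 (Meis1-high), -2.27 and -1.54 (Meis1-low), and -3.17 and -0.93 (Meis1-negative). Its level was highest on the Meis1-high arrays, and the other gates overlapped. Thymic epithelial markers were well above background on both arrays of every gate for 9 of 9 genes, with array medians of 4.77 and 5.27 (Meis1-high), 4.39 and 4.66 (Meis1-low), and 2.62 and 4.47 (Meis1-negative). Thymocyte and T cell markers, 18 genes of cells that the sort was set to remove, had medians of -2.12 and -1.96, -2.05 and -2.12, and 2.97 and -0.18 in the same order, so Meis1-negative replicate 1 stood apart.

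Mitosis genes were lowest in Meis1-high, and the other gates overlapped. The median level of the 40 genes was -0.53 and -1.10 (Meis1-high), 0.51 and 0.72 (Meis1-low), and 1.07 and 0.67 (Meis1-negative), while the median of all 18221 genes tested stayed between -0.60 and -0.36. For 38 of the 40 genes the Meis1-high mean was the lowest of the 3 gates, and the exceptions were Kif2c and Espl1, whose signals were dim. For 28 genes both Meis1-high arrays lay below all 4 other arrays, against a background of 12.3% of all genes tested. Among the 28 are Aurkb, Kif11 and Tpx2, which entered the test through the other gates. Each gene is given by its brightest passing probe. For 8 of the 28 a further probe was well above background on all 6 arrays. There the Meis1-high arrays overlapped with another gate for 4 genes, Bub1, Ect2, Kif11 and Kif4. For Mki67, Ccnb1 and Bub3, not among the 28, further probes well above background on all 6 arrays placed both Meis1-high arrays below all others. The highest mean was in Meis1-negative for 21 genes, in Meis1-low for 17 and in Meis1-high for 2.

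**Figure D2:**
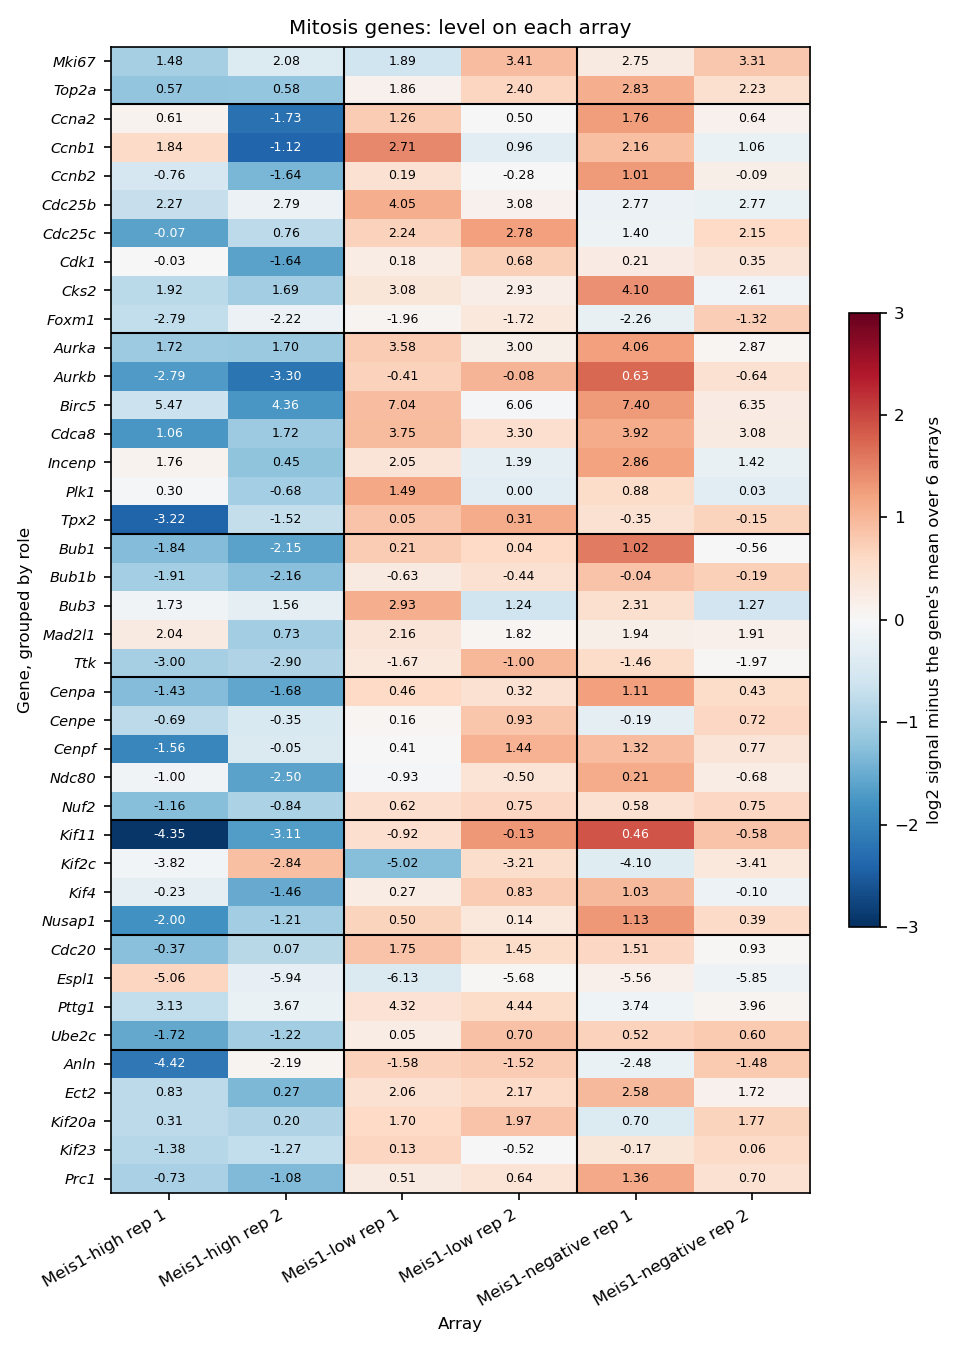
Level of each of the 40 genes on each of the 6 arrays, grouped by role, with the printed number giving the log2 signal minus the array's 75th percentile and the colour its distance from the gene's own mean over the 6 arrays. The Meis1-high columns are blue for most genes, and Kif2c and Espl1, both dim, are the rows that go the other way.

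Meis1-high and Meis1-low set small, bright cells against larger cells of intermediate EGFP. Their median log2 difference was -1.49 (SD over the 40 genes 0.74), -1.29 on slide 1 and -1.59 on slide 2, where the median of all genes tested was -0.16. The mean was lower in Meis1-high for 38 genes, against 55.8% of all genes tested. On both slides 37 genes were lower (background 41.3%), the exceptions being Bub3, Kif2c and Espl1. The arrays of the gates did not overlap for 31 genes (background 31.4%), and 31 genes were lower by over 1 on the log2 scale (background 22.2%). By limma with Benjamini-Hochberg adjustment over all 18221 genes, no gene was called at 0.05 (background 0%). The smallest adjusted p of any gene was 0.254, with 2354 genes at an unadjusted p under 0.05. Of the 40 genes, 18 were lower at that unadjusted level, against 8.34% of all genes tested. The 18 include Kif11, Aurkb and Tpx2, and the 31 without overlap include these and Anln, all of which entered the test through the other gates. Markers of other cells differed between these gates as well. Of 8 erythroid markers 7 had lower means in Meis1-high (median -1.90), with array medians of -4.04 and -3.21 against -1.24 and -1.40 in Meis1-low, Gata1 being well above background on no array. So did 9 of 11 markers of dendritic cells and macrophages (median -1.70), with array medians of -3.96 and -2.07 against -0.95 and -0.27, Siglech being well above background on no array. Pan-leukocyte markers were lower for 7 of 8 (median -1.05) and mature medullary epithelial markers for 10 of 10 (median -0.92). Cortical epithelial markers went the other way by median (1.12), with 5 of 8 higher in Meis1-high and 3 lower. The part of all these markers in the result was not tested.

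Meis1-high against Meis1-negative compares small cells on both sides. Here the median log2 difference of the 40 genes was -1.47, -1.64 on slide 1 and -1.37 on slide 2, and that of all genes tested was -0.08. The mean was lower in Meis1-high for 38 genes, against 53% of all genes tested. Lower on both slides were 35 genes (background 30.5%), the exceptions being Cdc25b, Bub3, Mad2l1, Kif2c and Espl1. The gates did not overlap for 30 genes (background 19.7%), and 30 were lower by over 1 (background 16.2%). No gene was called by limma (background 0%), the smallest adjusted p of any gene being 0.130, with 1908 genes at an unadjusted p under 0.05. Of the 40 genes, 17 were lower at that level, against 4.75% of all genes. The 17, like the 30 without overlap, include Kif11, Aurkb and Tpx2, which entered the test through the other gates. This comparison shares the Meis1-high arrays with the one against Meis1-low. All 18 thymocyte and T cell markers were also lower in Meis1-high (median -2.97), and 15 of the 18 were higher on Meis1-negative replicate 1 than on replicate 2. Of the 18, 11 were well above background on both Meis1-high arrays and 16 on both Meis1-negative arrays. For the 6 B cell markers these counts were 2 and 4, so part of both lists was dim. Pan-leukocyte markers were lower for 8 of 8 (median -1.84) and B cell markers for 6 of 6 (median -2.18), while thymic epithelial markers were higher for 9 of 9 (median 1.64). Without Meis1-negative replicate 1 these medians were -1.93, -3.48 and 0.66, and 4 of the 9 thymic epithelial markers were then lower in Meis1-high. The part of these cells in the result was not tested. Without that array the median of the mitosis genes was -1.22 with 37 lower, and the median of the thymocyte markers -1.13. Without replicate 2 of Meis1-negative the mitosis median was -1.84, and 985 genes were called, with Aurkb, Bub1 and Kif11 called lower (background 1.91% called lower).

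**Figure D3:**
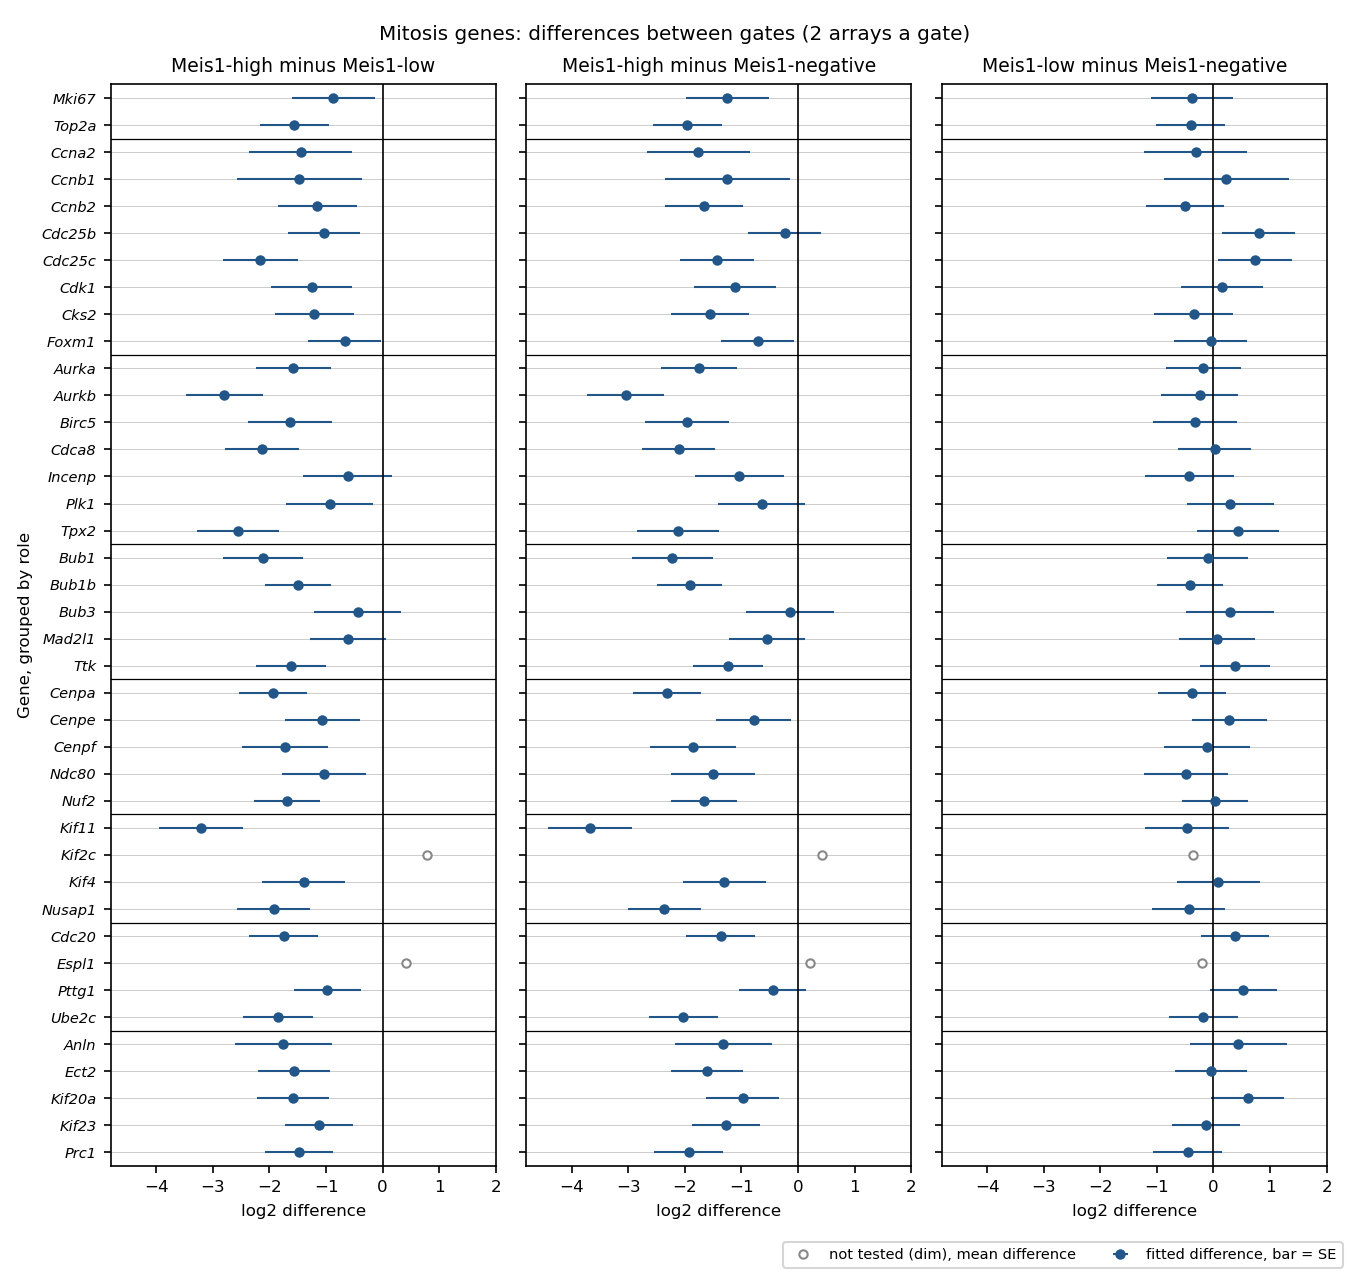
Log2 difference of each gene between gates, as fitted with its SE (filled points, 38 genes) or as the plain difference of means for the dim genes Kif2c and Espl1 (open points). In both comparisons with Meis1-high nearly all points lie left of 0, and in Meis1-low minus Meis1-negative they lie on either side.

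Among the general markers of dividing cells, Mki67 (probe at chr7:142881591-142881650 on mm9), which codes for the Ki-67 protein that coats mitotic chromosomes, was at 1.48 and 2.08 (Meis1-high), 1.89 and 3.41 (Meis1-low), and 2.75 and 3.31 (Meis1-negative). On this probe the Meis1-high arrays were below both Meis1-negative arrays but overlapped with Meis1-low. Its differences were -0.87 ± 0.73 (SE; limma adjusted p = 0.660) from Meis1-low and -1.25 ± 0.73 (limma adjusted p = 0.614) from Meis1-negative. A further Mki67 probe, well above background on all 6 arrays, was at 0.09 and 0.42, 0.77 and 1.51, and 1.11 and 1.58. There both Meis1-high arrays lay below all others, with differences of -0.88 and -1.09. Top2a, the topoisomerase that untangles sister chromatids, was at 0.57 and 0.58, 1.86 and 2.40, and 2.83 and 2.23 in the same order. Its Meis1-high arrays were nearly equal and below all others, and the differences were -1.56 ± 0.61 (limma adjusted p = 0.357) and -1.96 ± 0.61 (limma adjusted p = 0.366).

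The cyclins and regulators of Cdk1 were 8 genes, 8 of 8 with a lower mean in Meis1-high than in Meis1-low and 8 of 8 than in Meis1-negative. Cdk1, the kinase that drives entry into mitosis, was at -0.03 and -1.64 (Meis1-high), 0.18 and 0.68 (Meis1-low), and 0.21 and 0.35 (Meis1-negative). On slide 1 its levels were -0.03, 0.18 and 0.21, and the difference came mostly from Meis1-high replicate 2. Ccnb1, the cyclin B1 partner of Cdk1, showed the same split more strongly, at 1.84 and -1.12 (Meis1-high), 2.71 and 0.96 (Meis1-low), and 2.16 and 1.06 (Meis1-negative). On this probe its gates overlapped, the differences were -1.47 ± 1.11 (limma adjusted p = 0.624) and -1.25 ± 1.11 (limma adjusted p = 0.738), and without Meis1-high replicate 2 they were 0.0096 and 0.23. A dimmer Ccnb1 probe, well above background on all 6 arrays, was at -2.87 and -2.59, -1.38 and -1.11, and -1.54 and -1.27, with Meis1-high below both other gates and its replicates close. Ccna2, cyclin A2, was at 0.61 and -1.73, 1.26 and 0.50, and 1.76 and 0.64. Ccnb2, cyclin B2, was at -0.76 and -1.64, 0.19 and -0.28, and 1.01 and -0.09. On the probes that stand for them, Meis1-high replicate 2 was the lowest array for Cdk1, Ccna2, Ccnb1 and Ccnb2.

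Cdc25c, a phosphatase that activates Cdk1, was at -0.07 and 0.76 (Meis1-high), 2.24 and 2.78 (Meis1-low), and 1.40 and 2.15 (Meis1-negative). No gates overlapped, the order was the same on both slides, and the difference between Meis1-high and Meis1-low was -2.16 ± 0.66 (limma adjusted p = 0.284). Its paralog Cdc25b was at 2.27 and 2.79, 4.05 and 3.08, and 2.77 and 2.77, so Meis1-high and Meis1-negative overlapped and Meis1-low was above both. For Cdc25b against Meis1-negative the difference was -0.24 ± 0.64 (limma adjusted p = 0.908, 95% interval -1.74 to 1.26). A dimmer Cdc25b probe, well above background on 2 Meis1-high arrays, 1 Meis1-low array and no Meis1-negative array, went the other way, by 2.16 from Meis1-low and 3.27 from Meis1-negative, and the mean over all Cdc25b probes differed from Meis1-negative by 1.14. Another Cdc25b probe, well above background on all 6 arrays, was lower in Meis1-high than in Meis1-low by mean (-0.50) and higher than in Meis1-negative (0.38). Cks2, a small Cdk-binding subunit, was at 1.92 and 1.69, 3.08 and 2.93, and 4.10 and 2.61. Foxm1, the factor that activates G2 genes, was at -2.79 and -2.22, -1.96 and -1.72, and -2.26 and -1.32, with overlap between Meis1-high and Meis1-negative and a difference from Meis1-low of -0.67.

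The mitotic kinases and their partners were 7 genes, 7 of 7 with a lower mean in Meis1-high than in Meis1-low and 7 of 7 than in Meis1-negative. Aurkb, the kinase of the chromosomal passenger complex that corrects faulty attachments (probe at chr11:68865037-68865096 on mm9), was at -2.79 and -3.30 (Meis1-high), -0.41 and -0.08 (Meis1-low), and 0.63 and -0.64 (Meis1-negative). Both Meis1-high arrays were at least 2 log2 units below every other array, and only replicate 2 of them was well above background. The differences were -2.80 ± 0.68 (limma adjusted p = 0.258) and -3.04 ± 0.68 (limma adjusted p = 0.265), with 1 of the 2 Meis1-high values dim. Birc5 and Cdca8, survivin and borealin of the same complex, were well above background on all arrays, and their Meis1-high arrays lay below all others by a narrower gap. Birc5 was at 5.47 and 4.36, 7.04 and 6.06, and 7.40 and 6.35, with replicate 1 above replicate 2 in every gate, and differed by -1.64 ± 0.74 (limma adjusted p = 0.416) and -1.96 ± 0.74 (limma adjusted p = 0.437). Cdca8 was at 1.06 and 1.72, 3.75 and 3.30, and 3.92 and 3.08, with a difference from Meis1-low of -2.13 ± 0.65 (limma adjusted p = 0.283). Incenp, the scaffold of the complex, separated least, at 1.76 and 0.45, 2.05 and 1.39, and 2.86 and 1.42, with overlap in both comparisons.

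Aurka, the centrosomal Aurora kinase, was at 1.72 and 1.70 (Meis1-high), 3.58 and 3.0 (Meis1-low), and 4.06 and 2.87 (Meis1-negative). Its Meis1-high arrays lay below all others. Tpx2, which targets and activates Aurora A on the spindle, was at -3.22 and -1.52, 0.05 and 0.31, and -0.35 and -0.15, with a difference from Meis1-low of -2.55 ± 0.73 (limma adjusted p = 0.266). Plk1, the polo-like kinase with roles from mitotic entry to cytokinesis, was at 0.30 and -0.68, 1.49 and 0.00, and 0.88 and 0.03. Its gates overlapped, and the differences were -0.94 ± 0.77 (limma adjusted p = 0.656, 95% interval -2.74 to 0.87) and -0.64 ± 0.77 (limma adjusted p = 0.794).

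The spindle checkpoint holds back anaphase until all chromosomes are attached. On their brightest probes its 5 genes divided into those that separated the gates and those that did not. Bub1, a checkpoint kinase at the kinetochore, was at -1.84 and -2.15 (Meis1-high), 0.21 and 0.04 (Meis1-low), and 1.02 and -0.56 (Meis1-negative). Bub1b, the BubR1 protein of the mitotic checkpoint complex, was at -1.91 and -2.16, -0.63 and -0.44, and -0.04 and -0.19, and differed from Meis1-negative by -1.92 ± 0.58 (limma adjusted p = 0.357). Ttk, the Mps1 kinase that starts checkpoint signalling, was at -3.0 and -2.90, -1.67 and -1.0, and -1.46 and -1.97. On these probes both Meis1-high arrays lay below all other arrays for the 3 genes. A further Bub1 probe, well above background on all 6 arrays, was at -2.54 and -3.01, -1.52 and -1.64, and -1.77 and -2.93, where Meis1-high and Meis1-negative overlapped with a difference of -0.42. Bub3, the partner of Bub1 and BubR1, was at 1.73 and 1.56, 2.93 and 1.24, and 2.31 and 1.27 on its brightest probe. There Meis1-high lay between the replicates of both other gates. The differences on that probe were -0.44 ± 0.77 (limma adjusted p = 0.844, 95% interval -2.26 to 1.37) and -0.15 ± 0.77 (limma adjusted p = 0.954, 95% interval -1.96 to 1.67). A further Bub3 probe, well above background on all 6 arrays, was at 0.90 and 0.51, 1.63 and 1.25, and 2.22 and 1.25. On it both Meis1-high arrays lay below all other arrays, with differences of -0.74 and -1.03. Mad2l1, which codes for the Mad2 inhibitor of Cdc20, was at 2.04 and 0.73, 2.16 and 1.82, and 1.94 and 1.91, so that only Meis1-high replicate 2 stood below the rest. Its difference from Meis1-low was -0.61 ± 0.67 (limma adjusted p = 0.747).

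The 5 centromere and kinetochore genes all had lower means in Meis1-high, on both slides of both comparisons. Cenpa, the histone H3 variant that marks centromeres (probe at chr5:30976729-30976788 on mm9), was at -1.43 and -1.68 (Meis1-high), 0.46 and 0.32 (Meis1-low), and 1.11 and 0.43 (Meis1-negative). The replicates of each gate were close, and the differences were -1.94 ± 0.60 (limma adjusted p = 0.291) and -2.32 ± 0.60 (limma adjusted p = 0.326). Nuf2, of the Ndc80 complex that binds microtubules, was at -1.16 and -0.84, 0.62 and 0.75, and 0.58 and 0.75. Its partner Ndc80 was at -1.0 and -2.50, -0.93 and -0.50, and 0.21 and -0.68, with hardly any gap between Meis1-high and Meis1-low on slide 1. Cenpf, a large kinetochore protein of G2 and M, was at -1.56 and -0.05, 0.41 and 1.44, and 1.32 and 0.77. Cenpe, a kinetochore motor, was at -0.69 and -0.35, 0.16 and 0.93, and -0.19 and 0.72.

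Of the 4 spindle motors and microtubule factors, 3 were tested. Kif11, the kinesin-5 motor that pushes spindle poles apart (probe at chr19:37495755-37495814 on mm9), was at -4.35 and -3.11 (Meis1-high), -0.92 and -0.13 (Meis1-low), and 0.46 and -0.58 (Meis1-negative). On this probe both Meis1-high arrays were more than 2 log2 units below every other array, but replicate 1 was not well above background. The differences were -3.20 ± 0.74 (limma adjusted p = 0.258) and -3.67 ± 0.74 (limma adjusted p = 0.209). A further Kif11 probe, well above background on all 6 arrays, was at -2.55 and -2.96, -2.90 and -1.96, and -0.22 and -1.35. There Meis1-high overlapped with Meis1-low, with a difference of -0.33, and lay below Meis1-negative, with a difference of -1.97. Nusap1, which bundles microtubules near chromosomes, was at -2.0 and -1.21, 0.50 and 0.14, and 1.13 and 0.39, and differed from Meis1-negative by -2.36 ± 0.64 (limma adjusted p = 0.337). Kif4, a chromosome-bound kinesin, was at -0.23 and -1.46, 0.27 and 0.83, and 1.03 and -0.10, without overlap of Meis1-high with the others on this probe but with overlap on a further one. Kif2c, a kinesin that shortens microtubules at centromeres, was at -3.82 and -2.84, -5.02 and -3.21, and -4.10 and -3.41, well above background on the replicate 2 arrays only and untested.

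Of the 4 genes of anaphase onset, Cdc20, the activator of the anaphase-promoting complex, was at -0.37 and 0.07 (Meis1-high), 1.75 and 1.45 (Meis1-low), and 1.51 and 0.93 (Meis1-negative). Ube2c, the ubiquitin-conjugating enzyme of that complex, was at -1.72 and -1.22, 0.05 and 0.70, and 0.52 and 0.60, with a difference from Meis1-negative of -2.03 ± 0.61 (limma adjusted p = 0.352). Both Meis1-high arrays lay below all others for each of these genes. Pttg1, securin, was at 3.13 and 3.67, 4.32 and 4.44, and 3.74 and 3.96, so its gates were ordered without overlap from Meis1-high through Meis1-negative to Meis1-low. The difference of Pttg1 from Meis1-negative was -0.45 ± 0.59 (limma adjusted p = 0.813). Espl1, separase, stayed between -6.13 and -5.06 on all arrays and was well above background on none.

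The 5 central spindle and cytokinesis genes had their lowest level on the Meis1-high array of each slide. Prc1, which bundles the midzone, was at -0.73 and -1.08 (Meis1-high), 0.51 and 0.64 (Meis1-low), and 1.36 and 0.70 (Meis1-negative). Ect2, the exchange factor that activates RhoA at the furrow, was at 0.83 and 0.27, 2.06 and 2.17, and 2.58 and 1.72. Kif23, a subunit of centralspindlin, was at -1.38 and -1.27, 0.13 and -0.52, and -0.17 and 0.06. Kif20a, a midzone kinesin, was at 0.31 and 0.20, 1.70 and 1.97, and 0.70 and 1.77. On these probes both Meis1-high arrays were below all others for the 4 genes. A further Ect2 probe, well above background on all 6 arrays, was at -2.94 and -3.14, -0.53 and -1.19, and -3.12 and -1.77, so that Meis1-high overlapped with Meis1-negative there. Anln, the contractile ring scaffold anillin, was at -4.42 and -2.19, -1.58 and -1.52, and -2.48 and -1.48, where Meis1-high overlapped with Meis1-negative.

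**Figure D4:**
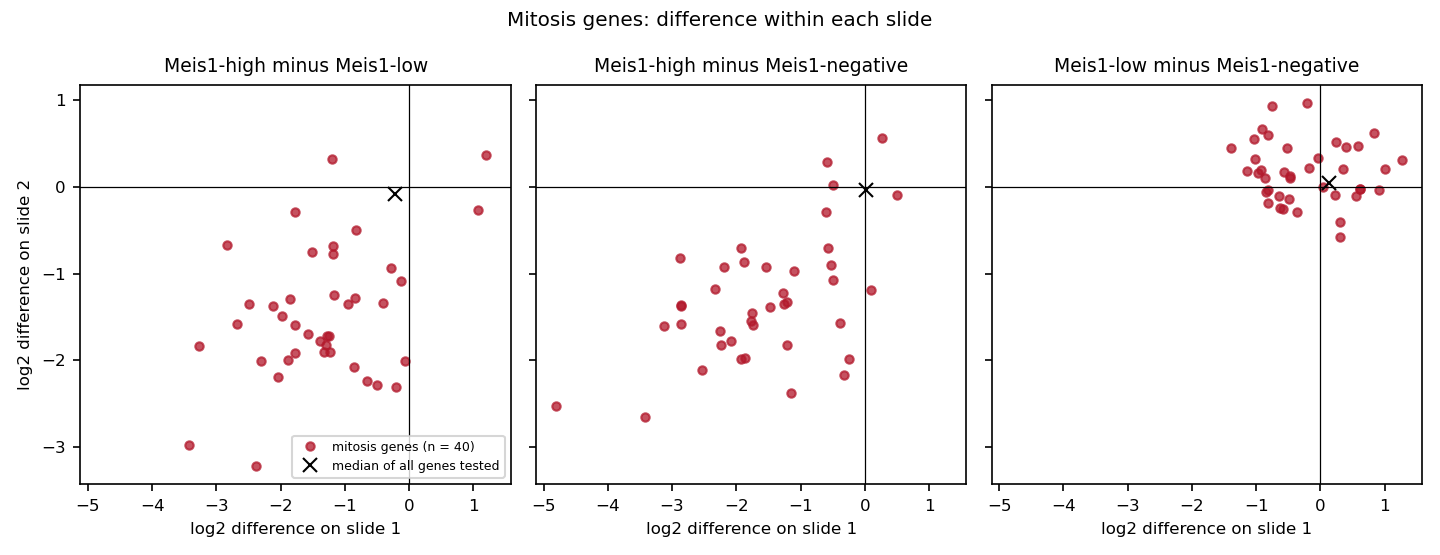
Log2 difference of each of the 40 genes on slide 1 (horizontal axis) against slide 2 (vertical axis), for the 3 comparisons, with the median of all genes tested as a cross. For Meis1-high minus Meis1-low 37 genes lie at lower left, below 0 on both slides, for Meis1-high minus Meis1-negative 35, and for Meis1-low minus Meis1-negative 8.

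Between Meis1-low and Meis1-negative the mitosis genes did not share a direction. The median log2 difference was -0.11, with -0.47 on slide 1 and 0.17 on slide 2, and 23 genes were lower in Meis1-low (background 46.6%) and 17 higher. Lower on both slides were 8 genes (background 27.4%) and higher on both slides 8 (background 34.9%). The arrays did not overlap for Bub1b and Prc1, which were lower in Meis1-low (background 15%), or for Cdc25b, Cdc25c, Tpx2 and Pttg1, which were higher (background 24.2%). No gene was called by limma (background 0%), the smallest adjusted p of any gene being 0.0575, with 1493 genes at an unadjusted p under 0.05, none of them among the 40 (background 2.96% lower and 5.23% higher). Cdc25b had the smallest p of the 40, with 0.80 ± 0.64 (limma adjusted p = 0.713, 95% interval -0.71 to 2.30), followed by Cdc25c, with 0.73 ± 0.66 (limma adjusted p = 0.752). At the other end Cdca8 differed by 0.024 ± 0.65 (limma adjusted p = 0.996, 95% interval -1.49 to 1.54) and Nuf2 by 0.022 ± 0.58 (limma adjusted p = 0.996, 95% interval -1.34 to 1.38). The intervals of Cdca8 and Nuf2 hold differences of over 2-fold in either direction. Without Meis1-negative replicate 1, the array with high thymocyte markers, the median was 0.12 with 15 genes lower, and without replicate 2 it was -0.34 with 27 lower, and limma called 1348 genes (background 7.4%), none of them among the 40.

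Taken over the 3 gates, the moderated F test of limma called no gene (background 0%), with a smallest adjusted p of 0.127 and 2082 genes at an unadjusted p under 0.05. Without Meis1-negative replicate 2 it called 1105 genes (background 6.07%), with 2 of the 40, Aurkb and Kif11, a share no higher than the background. With normexp background correction the counts of called genes were 242 for Meis1-high against Meis1-low, 307 against Meis1-negative, and 475 for the F test, of 18221 tested. Of the mitosis genes, Birc5 (-2.12 ± 0.55, limma adjusted p = 0.0129) and Cdca8 (-2.03 ± 0.55, limma adjusted p = 0.0206) were called lower in Meis1-high than in Meis1-negative under that correction, where 0.993% of all genes were called lower. The fit then gave all genes the same SE, and over the alternatives the adjusted p of both genes ranged from those values up to 0.998.

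Other genes of cell division, in lists that do not overlap with the 40, varied in how closely they followed. For all lists below, the background of a lower mean in Meis1-high was 55.8% against Meis1-low and 53% against Meis1-negative. The nearest were 34 other kinetochore, checkpoint and condensin genes, all 34 lower in Meis1-high in each comparison. Their medians were -1.24 from Meis1-low and -1.71 from Meis1-negative, with 0 called by limma in either. Some entered through the other gates, which favours a lower Meis1-high level. Kif18a and Cenpn were well above background on 0 Meis1-high arrays, and Spag5 and Sgo2a on 1. Of the 34, Melk, a kinase of dividing cells, differed from Meis1-low by -2.55 ± 0.67 and Spc25, of the Ndc80 complex, by -2.76 ± 0.76 (limma adjusted p = 0.259 for each). Ncapg, a condensin subunit, differed from Meis1-negative by -1.99 ± 0.58 (limma adjusted p = 0.350). The 15 subunits and regulators of the anaphase-promoting complex, most of which are not known to be restricted to dividing cells, had medians of -0.43 and -0.31, with 12 and 11 lower. Without Meis1-low replicate 1 the first of these was -0.05, and without Meis1-negative replicate 1 the second was -0.016 with 8 of 15 lower.

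DNA replication genes, 35 in all, had a median of -0.63 from Meis1-low with 30 lower (-0.37 without Meis1-low replicate 1), and of -1.64 from Meis1-negative with 34 lower. Their array medians were 0.08 and -0.10 (Meis1-high), 0.70 and 0.41 (Meis1-low), and 2.47 and 0.55 (Meis1-negative), so that Meis1-negative replicate 1 stood far above its replicate. Without that array their median difference between Meis1-high and Meis1-negative was -0.72, without replicate 2 it was -2.50, and between Meis1-low and Meis1-negative -0.08 in place of -0.95. Rrm2, a subunit of ribonucleotide reductase, differed from Meis1-negative by -2.30 ± 0.71 (limma adjusted p = 0.362), and Lig1, which joins Okazaki fragments, from Meis1-low by -1.51 ± 0.64 (limma adjusted p = 0.387). The mitosis genes, with array medians of 1.07 and 0.67 in Meis1-negative, had a smaller gap between those replicates.

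The 13 genes of G1 cyclins, their kinases and E2F factors had medians of 0.10 from Meis1-low, with 6 lower, and -0.79 from Meis1-negative, with 11 lower. E2f1, which drives S phase genes, differed from Meis1-negative by -1.94 ± 0.74 (limma adjusted p = 0.437). Of 9 genes of the DREAM and MuvB complexes, 7 and 9 were lower, with medians of -0.33 and -0.99. Mybl2, the B-Myb factor that joins MuvB in G2, differed by -1.75 ± 0.66 (limma adjusted p = 0.338) and -2.08 ± 0.66 (limma adjusted p = 0.366). Only 1 of its Meis1-high arrays was well above background, so Mybl2 entered the test through the other gates. Of the 7 CDK inhibitors, which restrain the cycle, 7 had lower means in Meis1-high than in Meis1-low (median -0.59), and 4 than in Meis1-negative (median -0.17). Cdkn1a, the p21 inhibitor, differed from Meis1-low by -1.15 ± 0.58 (limma adjusted p = 0.466). Cdkn1c, the p57 inhibitor, was higher in mean in Meis1-high than in Meis1-negative, by 1.65 ± 0.74 (limma adjusted p = 0.499). None of these lists held a called gene. Their medians moved with single arrays. Without Meis1-negative replicate 1 the median difference from Meis1-negative was -0.35 with 9 lower for the G1 list and -0.44 with 8 lower for the DREAM and MuvB genes. Without Meis1-negative replicate 2 it was -1.63 for the G1 list, and for the CDK inhibitors it turned to 0.088 with 3 of 7 lower. Against Meis1-low the G1 median turned to -0.10 without Meis1-low replicate 1, and that of the DREAM and MuvB genes was -0.82 without Meis1-low replicate 2 and -0.77 without Meis1-high replicate 1. The CDK inhibitor median there was -0.15 without Meis1-high replicate 2, -1.04 without Meis1-high replicate 1, -0.23 without Meis1-low replicate 1 and -0.96 without Meis1-low replicate 2.

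**Figure D5:**
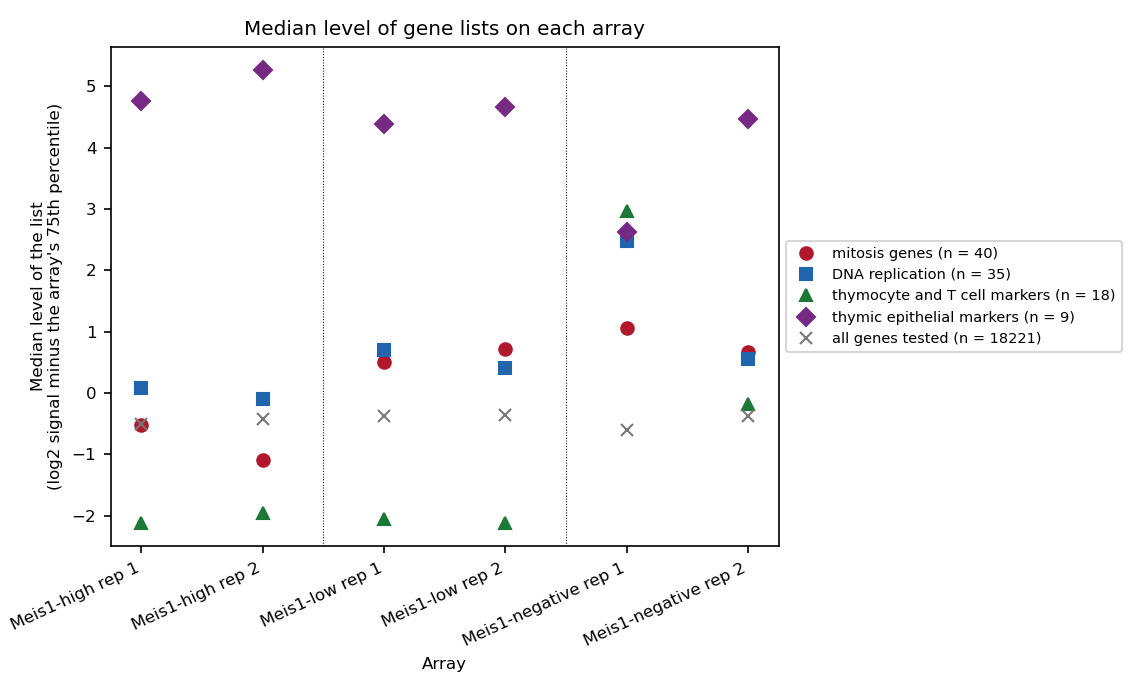
Median level of the mitosis genes, DNA replication genes, thymocyte markers, thymic epithelial markers and all genes tested on each of the 6 arrays, as log2 signal minus the array's 75th percentile. The mitosis genes are lowest on both Meis1-high arrays, and on Meis1-negative replicate 1 the thymocyte markers (2.97) and DNA replication genes (2.47) are high while the epithelial markers (2.62) are at their lowest.

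Grouped by promoter letters, the 25 genes with CHR letters had median differences of -1.50 from Meis1-low and -1.51 from Meis1-negative, and the 8 without had -1.34 and -1.40. The ranges overlapped widely, from -3.20 to 0.78 with CHR letters and from -1.92 to -0.61 without, for the first of these comparisons, where the 0.78 is that of the dim Kif2c. Bub3, with both elements close to the start shown for it, was on its brightest probe among the genes that differed least. Its further probe differed by -0.74 from Meis1-low and -1.03 from Meis1-negative. Nusap1, with neither element in its window, was among the genes that differed most from Meis1-negative (-2.36). Kif11, with both elements but 1 dim Meis1-high value, differed more (-3.67). The 7 genes without a window had medians of -1.58 from Meis1-low and -1.43 from Meis1-negative. A link between letters and levels was not tested.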

How the data were processed

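Each gate was hybridised on 2 one-colour whole mouse genome arrays. Per the file headers, Agilent Feature Extraction 9.5.3.1 read the scans, probe positions are on mm9, and the processed signal is an intensity after background subtraction, not scaled between arrays. The authors' deposited value table is on a log2 scale; after centring per probe it equals the scanner intensities scaled to each array's 75th percentile, and it served as an alternative. Surrogate values stood in for 15.5% to 28.2% of the spots of an array.

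From the scanner files, control spots and the 53 to 78 spots per array marked as outliers were left out, spots of a probe were averaged, and log2 signal minus the array's 75th percentile was taken. Probe names were updated through RefSeq tables (GRCm38.p6). The passing probe with the highest mean stood for a gene. Tested were the 18221 genes with a probe that the scanner marked well above background on both arrays of some gate. Gates were compared with limma 3.58.1 in R 4.3.3, with 1 mean per gate over 6 arrays (3 residual and 4.28 prior degrees of freedom), and Benjamini-Hochberg adjustment over all genes tested at a threshold of 0.05. Same-numbered arrays shared a slide and scan, per the file headers, and their deviations from the gate means correlated at 0.209, 0.128 and 0.125; the slide entered as a block in an alternative. On simulated data for Meis1-high against Meis1-negative with 18221 genes, the test recovered 0 of 50 genes changed by a log2 value of 1, 1 of 50 changed by 2, 20 of 50 changed by 4 and 47 of 50 changed by 6, and it called 5 unchanged genes. With 2 arrays a gate, the number of arrays limits the precision. The members, the other lists and the rule for genes with full statistics were chosen with earlier results of these data known. That rule took, per comparison, the 6 members with the smallest p, the 3 with the largest, 8 set members (Mki67, Top2a, Cdk1, Ccnb1, Plk1, Aurkb, Birc5 and Bub3), and up to 3 genes of each other list with the smallest p. Promoter windows were searched in Python 3.11.15, and plots were made with matplotlib 3.10.9 and pandas 2.3.3. Alternatives covered background correction, scaling, filters, a floor, probe averaging, outlier spots, array weights, the slide as a block, the authors' values, a fit of the 4 arrays compared, and leaving out each array.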

Additional observations from a re-analysis of the deposited data

How the results depend on the processing

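Lower levels in Meis1-high held in every setting for the median of the 40 genes. Its difference from Meis1-low was -0.86 with normexp background correction and -1.22 with the mean of all probes, and lay between -1.58 and -1.29 with an array left out. From Meis1-negative it was -0.99 with normexp and between -1.84 and -1.22 with an array left out. Between Meis1-low and Meis1-negative the count of members lower ranged from 15 to 27 with an array left out. With the slide as a replicate block no gene was called in any comparison, and the medians were -1.49, -1.47 and -0.11, as without it. Counts of called genes, 0 in each comparison and in the F test, became 242 (Meis1-high against Meis1-low), 307 (Meis1-high against Meis1-negative), 129 (Meis1-low against Meis1-negative) and 475 (F test) with normexp. In the order of the last 3 they were 78, 14 and 68 with median scaling, and 16 genes were called in Meis1-high against Meis1-negative with dim signals raised to the array's lowest detected signal. Median scaling also moves the median of all genes by -0.14 in Meis1-high against Meis1-negative and by -0.13 in Meis1-low against Meis1-negative. With an array left out the counts ranged from 0 to 985, 0 to 1348 and 0 to 1105, all the upper values without Meis1-negative replicate 2, where the lone array of a gate is assumed to vary like the others; the cause was not tested.

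Of 47 results for single members, 18 changed sign with some array left out and 5 with another setting. From Meis1-low, the ranges for Meis1-high with an array left out were -2.95 to 0.0096 for Ccnb1, -1.29 to 0.40 for Bub3, -1.26 to 0.051 for Mad2l1 and -1.27 to 0.043 for Incenp. From Meis1-negative they were -2.73 to 0.23 for Ccnb1, -0.50 to 0.019 for Cdc25b and -0.67 to 0.37 for Bub3, and the mean of probes gave 1.14 for Cdc25b. Between Meis1-low and Meis1-negative they were -1.14 to 0.39 for Mki67, -0.11 to 0.40 for Cdk1, -0.65 to 1.10 for Ccnb1, -1.06 to 0.048 for Ccnb2, -0.87 to 0.39 for Aurkb, -0.55 to 1.14 for Bub3, -0.45 to 1.04 for Plk1, -0.85 to 0.20 for Birc5, -0.40 to 0.44 for Cdca8, -0.061 to 0.10 for Nuf2 and -0.47 to 0.39 for Ect2. In that comparison the mean of probes gave -0.00022 for Bub3, -0.54 for Cdca8 and 0.77 for Ect2, normexp gave -0.20 for Cdca8 and -0.026 for Nuf2, and median scaling gave -0.11 for both. For dim genes, the signal over background limits what a difference means.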
